A study of Mus musculus with 8 samples.

Results

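Messenger RNA of 7 genes for surface proteins that mark fibroblasts, Thy1, Nt5e, Ly6a, Fap, Axl, Tm4sf1 and Cd248, was followed across mouse embryonic fibroblasts (MEF), neural precursor cells (NPC) and embryonic stem (ES) cells. The genes were taken by name, and every probe set that the array annotation lists with a single one of them was used. That gave 11 of 45037 probe sets for 6 genes, out of 18193 genes measured. Ly6a, which encodes Sca-1, had no probe set of its own in the annotation used and was not analysed here. Whole-genome Affymetrix arrays had been hybridised with total RNA from wild-type cells: 2 arrays of primary MEF grown in serum, 3 of NPC and 3 of ES cells of the V6.5 line. The NPC had been made from ES cells through embryoid bodies and selection in ITSFn medium and were kept in FGF2 and EGF2, as the labels spell them. The ES cells had been grown with leukemia-inhibiting factor on irradiated MEFs and then passaged on gelatin without feeders. Nothing in the labels gives the arrays of a group different cultures, so the p-values rest on the spread among these arrays alone, and that spread may be technical.

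These proteins reach the cell surface by different routes. Thy1 (CD90), Nt5e (CD73) and Ly6a are held in the membrane by a GPI anchor, a glycolipid attached to the protein in the endoplasmic reticulum. Fap is a membrane serine protease, Axl a receptor tyrosine kinase of the TAM family that binds Gas6, Tm4sf1 a protein of the L6 family that spans the membrane several times, and Cd248 (endosialin) a lectin-like protein of stromal cells and pericytes. Antibodies to such proteins are used to sort fibroblasts, although none of them is made by fibroblasts alone.

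The RefSeq promoter table (GRCm38.p6) held 3 of the 7 genes: Tm4sf1, Axl and Nt5e. Tm4sf1 and Axl were called higher in MEF than in ES cells, and Nt5e, read from its brightest probe set, was not. Another probe set of Nt5e was called in that comparison, and all 3 genes were called higher in MEF than in NPC. They are shown as the 250 bases before an annotated transcript start, 5′ to 3′ on the gene's strand. That start need not be the outermost one of the gene. Tm4sf1 is annotated at chr3:57285611-57387736 and Axl at chr7:25756500-25788924. The window of Tm4sf1 and most of that of Axl therefore lie inside the annotated gene, while that of Nt5e ends just before its gene start at 88327609. The windows are chr3:57301989-57302238 (minus strand) for Tm4sf1, chr7:25788734-25788983 (minus strand) for Axl and chr9:88327359-88327608 (plus strand) for Nt5e. Capitals mark a CCAAT box in Tm4sf1, the TEAD motif GGAATG and the Sp1 motif GGGCGG in Axl, and GGGCGG on the opposite strand, read as CCGCCC, in Nt5e.
Tm4sf1: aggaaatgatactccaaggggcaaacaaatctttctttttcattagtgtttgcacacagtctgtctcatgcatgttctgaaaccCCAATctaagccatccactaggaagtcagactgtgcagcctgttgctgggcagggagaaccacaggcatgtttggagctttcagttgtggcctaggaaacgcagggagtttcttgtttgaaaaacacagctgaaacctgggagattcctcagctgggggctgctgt
Axl: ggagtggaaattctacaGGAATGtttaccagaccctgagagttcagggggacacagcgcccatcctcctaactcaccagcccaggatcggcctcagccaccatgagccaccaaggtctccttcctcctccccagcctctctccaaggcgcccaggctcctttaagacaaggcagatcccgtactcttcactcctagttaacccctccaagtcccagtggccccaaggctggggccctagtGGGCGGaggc
Nt5e: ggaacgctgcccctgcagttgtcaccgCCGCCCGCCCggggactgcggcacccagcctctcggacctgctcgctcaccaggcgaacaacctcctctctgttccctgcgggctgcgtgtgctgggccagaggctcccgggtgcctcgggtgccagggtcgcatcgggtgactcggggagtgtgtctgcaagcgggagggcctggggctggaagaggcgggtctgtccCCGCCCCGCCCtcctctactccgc
Nt5e had the most GC-rich window, with 72% GC and 21 CpG dinucleotides, against 60% and 5 in Axl and 48% and 1 in Tm4sf1. The medians over 32851 promoter windows of this length were 52.4% GC and 6 CpG. On either strand, CCAAT was found in 33.8% of all windows, GGGCGG in 32.7% and GGAATG in 12.6%. Nt5e held 4 matches to GGGCGG, starting at -223, -219, -24 and -19 relative to the transcript start, and the matches overlap within each neighbouring pair. TATAAA (in 12.4% of windows) and the AP-1 motif TGANTCA (6.75%) matched none of the 3. The E-box CANNTG (66.2% of windows, not capitalised) matched 3 times in Tm4sf1, once in Nt5e and not in Axl, and overlapped no capitalised motif. A match is a description of the letters in the window and not evidence of binding.

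The arrays grouped by cell type and the labels fitted their markers. All 7 ES cell markers were called lower in MEF and in NPC than in ES cells, all 6 neural precursor markers lower in MEF than in NPC (5 with median centring), and 17 of 18 fibroblast identity genes higher in MEF than in each other cell type. A gene was called when limma's Benjamini-Hochberg adjusted p over all genes was under 0.05 and the log2 difference at least 1. Each gene was read from its brightest probe set as quantile normalized log2(intensity + 16), a scale on which 4 stands for no signal and folds of dim genes are understated. NPC 1 correlated with NPC 2 and NPC 3 at 0.9666 and 0.9692, below the 0.9871 between those arrays, and the counts of called surface markers were equal without it. The summed normalized intensity of the fibroblast identity genes was 60300 to 60400 on the MEF arrays, 829 to 1460 on the NPC arrays and 1290 to 1370 on the ES arrays, with NPC 1 the highest of the NPC arrays. The NPC sums lean on few genes: Fbln1 was at 9.08 ± 0.14 (SD) in NPC, and Fbln2 ran from 5.27 to 9.22 there. By gene, 1 of the 18 was called higher and 7 lower in NPC than in ES cells. Over all genes 10% were called higher and 12.9% lower in that comparison.

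Of the 6 measured markers, 5 were called higher in MEF than in ES cells, and all 6 were called higher in MEF than in NPC. Tm4sf1 was 94.1-fold higher than in ES cells and 135-fold higher than in NPC, and over ES cells Axl was 42.7-fold, Thy1 38.8-fold, Cd248 17.1-fold and Fap 12.5-fold higher. The order of these sizes depends on the setting: with a pseudocount of 1 the log2 differences of Fap (6.02) and Cd248 (5.91) exceeded those of Axl (5.77) and Thy1 (5.65), and with the mean of probe sets Thy1 (5.28) and Cd248 (4.09) exceeded Tm4sf1 (3.83) and Axl (2.74). Nt5e stood closest to the threshold, 1.96-fold above ES cells without a call and 2.94-fold above NPC with one. Of all genes, 25% were called in MEF against ES cells (12.2% higher and 12.8% lower) and 18.5% in MEF against NPC (10.5% higher and 7.95% lower). The median log2 difference of the 6 markers was 4.68 from ES cells and 4.34 from NPC, against -0.04 and -0.01 over all genes. Both comparisons share the MEF arrays, and in such bulk RNA fewer cells of a type and less RNA per cell cannot be told apart. Genes higher in MEF made up 48.9% of the calls against ES cells after quantile normalization, 65.1% after median centring and 79.4% on the intensities as deposited, where the median over all genes lay at 0.32. Against NPC these shares were 56.9%, 74.2% and 87.6%, with the median over all genes at 0.43 on the intensities as deposited.

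**Figure D1:**
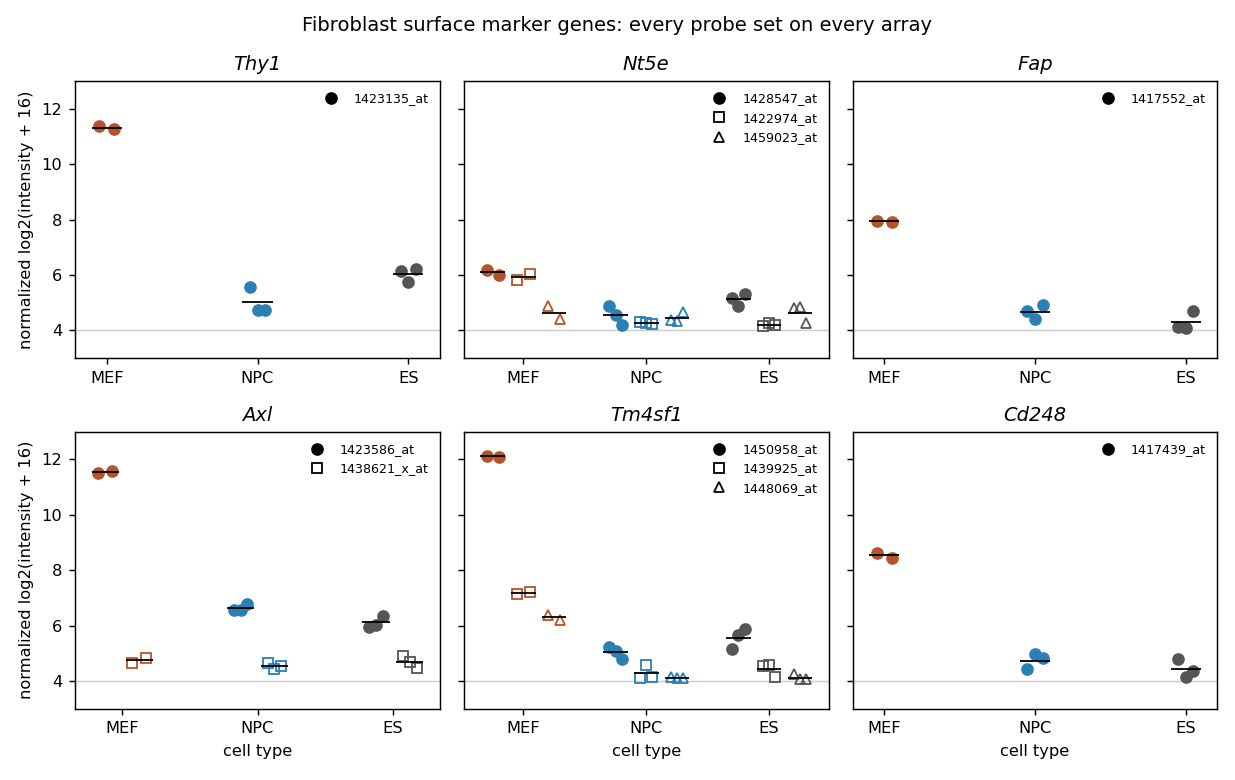
Normalized log2(intensity + 16) of each of the 11 probe sets on each array, by cell type, MEF left, NPC and ES right. Filled symbols are the brightest probe set of a gene, open symbols its other probe sets, short lines the group means and the grey line the value of no signal (4). The filled MEF points lie above all NPC and ES points in all 6 panels.

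The GPI-anchored markers differed in size. Thy1, an immunoglobulin-like protein that binds integrins on other cells, was at 11.38 and 11.27 on the MEF arrays, at 5.56, 4.75 and 4.76 on the NPC arrays and at 6.14, 5.76 and 6.24 on the ES arrays. The MEF arrays stood far above all others, and NPC 1 lay between the other NPC arrays and the ES arrays. In deposited intensity this was 4059 and 3713 in MEF, 30.1, 8.71 and 9.54 in NPC and 54.7, 34.5 and 44.2 in ES cells. The log2 difference was 5.28 ± 0.26 from ES cells (SE, limma adjusted p = 5.12e-07) and 6.30 ± 0.26 from NPC (limma adjusted p = 2.34e-07), ranks 39 and 41 from the top among 18193 genes.

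Nt5e, an ectonucleotidase that releases adenosine from AMP, was at 6.199 and 6.001 in MEF, at 4.89, 4.56 and 4.19 in NPC and at 5.16, 4.90 and 5.33 in ES cells. The groups did not overlap, and all values were dim. The log2 difference from ES cells was 0.97 ± 0.24 (SE, 95% interval 0.44 to 1.51, limma adjusted p = 0.00747), under the minimum of 1, and from NPC 1.55 ± 0.24 (limma adjusted p = 0.000678). The call against ES cells was made without ES 3 (1.10), at the deposited scaling (1.44) and with median centring (1.12), and the call against NPC ended with a pseudocount of 64 (0.71). With a pseudocount of 1 the difference from ES cells was 1.44, but it was not called (limma adjusted p = 0.0901). Without MEF 1 and without MEF 2, each leaving a single MEF array, that difference was 0.85 and 1.04.

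Its 3 probe sets disagreed. In a fit of all probe sets, 1422974_at was at 5.83 and 6.03 in MEF, 4.32, 4.26 and 4.23 in NPC and 4.17, 4.25 and 4.21 in ES cells, and was called in MEF against both, at 1.66 ± 0.15 from NPC (limma adjusted p = 2.01e-05) and 1.72 ± 0.15 from ES cells (SE, limma adjusted p = 1.14e-05). The values above are those of 1428547_at. The remaining one, 1459023_at, lay between 4.26 and 4.90 on every array and was not called, with a difference of 0.01 from ES cells (95% interval -0.50 to 0.53). The result for Nt5e in MEF against ES cells therefore depends on which probe set stands for the gene.

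Fap, a serine protease that cleaves after proline and is known from activated fibroblasts, was at 7.95 and 7.92 in MEF, at 4.69, 4.42 and 4.90 in NPC and at 4.11, 4.08 and 4.68 in ES cells. The MEF arrays agreed closely, while NPC and ES arrays overlapped just above the value of no signal. The log2 difference was 3.65 ± 0.24 from ES cells (SE, limma adjusted p = 2.33e-06) and 3.27 ± 0.24 from NPC (limma adjusted p = 6.76e-06). With a pseudocount of 1 the difference from ES cells was 6.02 and with 64 it was 2.12, so the fold depends on how dim values are treated, and the call was made with each.

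Axl was at 11.50 and 11.57 in MEF, at 6.57, 6.58 and 6.79 in NPC and at 5.96, 6.04 and 6.35 in ES cells. NPC lay above ES cells on every array, and both far below MEF. The log2 difference was 5.42 ± 0.15 from ES cells (SE, limma adjusted p = 1.84e-08) and 4.89 ± 0.15 from NPC (limma adjusted p = 3.6e-08). A further probe set, 1438621_x_at, whose suffix marks sequence shared with other transcripts, stayed between 4.45 and 4.90 on every array and was not called in any comparison (0.06 from ES cells, 95% interval -0.33 to 0.45), so that averaging the probe sets gave 2.74 from ES cells and 2.54 from NPC.

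Tm4sf1, a membrane protein also known from tumour and endothelial cells, was at 12.14 and 12.10 in MEF, at 5.23, 5.08 and 4.80 in NPC and at 5.14, 5.66 and 5.88 in ES cells. In deposited intensity the MEF arrays read 6488 and 6294, the NPC arrays 20.6, 14.4 and 10.3 and the ES arrays 19.8, 31.3 and 32.8. Its log2 differences of 6.56 ± 0.22 from ES cells (SE, limma adjusted p = 7.09e-08) and 7.08 ± 0.22 from NPC (limma adjusted p = 4.81e-08) ranked 5 and 19 from the top. The other probe sets, 1439925_at and 1448069_at, went the same way, with differences of 2.76 and 2.17 from ES cells and 2.89 and 2.18 from NPC, all called. The mean of the 3 gave 3.83 and 4.05.

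Cd248 was at 8.62 and 8.46 in MEF, at 4.43, 4.98 and 4.82 in NPC and at 4.81, 4.15 and 4.38 in ES cells. NPC and ES arrays overlapped and no MEF array came near them. The log2 difference was 4.09 ± 0.25 from ES cells (SE, limma adjusted p = 1.52e-06) and 3.80 ± 0.25 from NPC (limma adjusted p = 3.34e-06). The difference from ES cells ran from 2.59 with a pseudocount of 64 to 5.91 with a pseudocount of 1.

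In the fit of all probe sets, 8 of the 11 were called higher in MEF than in ES cells, where 19.4% of all probe sets were called (9.82% higher and 9.54% lower). In MEF against NPC 9 were called higher, where 16.2% were called (8.1% higher and 8.1% lower). In NPC against ES cells 1, that of Thy1, was called lower, where 17.9% were called (8.99% higher and 8.86% lower).

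**Figure D2:**
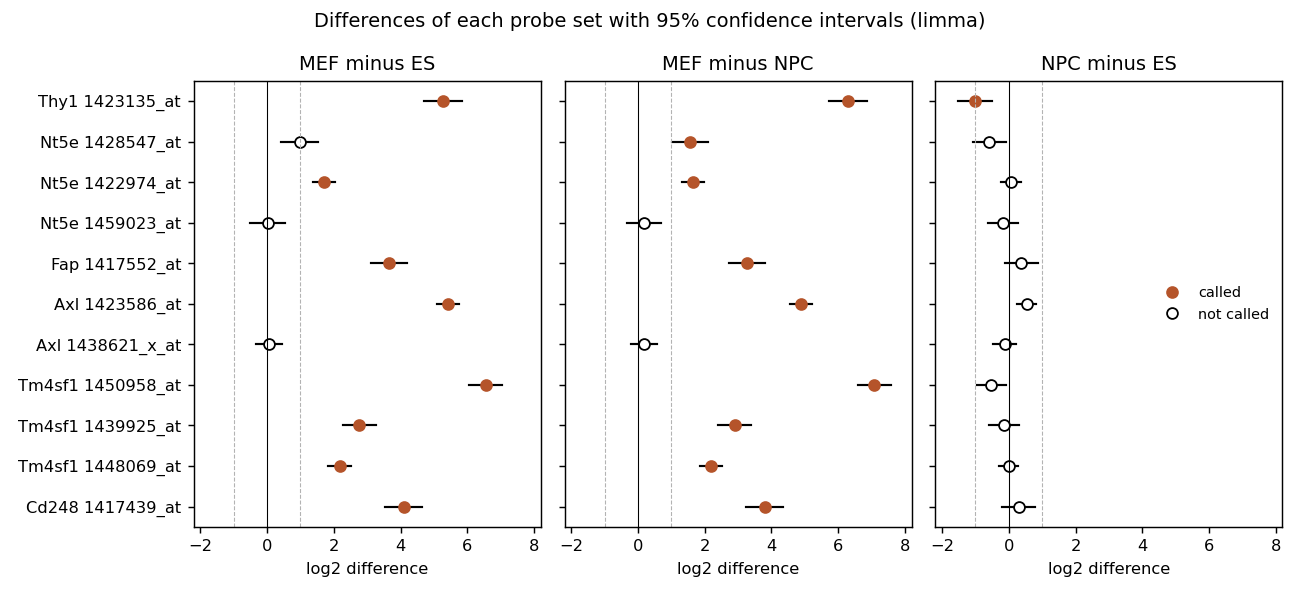
Log2 difference (x axis) of each probe set in the fit of all 45037 probe sets, with its 95% confidence interval as a line, for MEF minus ES, MEF minus NPC and NPC minus ES. Filled points were called and dashed lines mark differences of 1 in each direction. Of the 11 probe sets, 8 were called higher in MEF than in ES and 9 higher in MEF than in NPC, and 1, that of Thy1, was called lower in NPC than in ES.

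NPC and ES cells differed far less from each other than either did from MEF for Thy1, Fap, Axl, Tm4sf1 and Cd248. Thy1 alone was called, lower in NPC by a log2 difference of -1.02 ± 0.23 (SE, limma adjusted p = 0.00552), where 22.9% of all genes were called, 12.9% lower and 10% higher. That call rests on the threshold: it was not made with median centring (-0.94), at the deposited scaling (-0.96), with a pseudocount of 64 (-0.50), or without any of ES 1, ES 3, MEF 1, MEF 2, NPC 2 and NPC 3 (-0.998 to -0.893). Without NPC 1 it was made, at -1.30.

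Of the uncalled markers, Axl was higher in NPC than in ES cells by 0.53 (95% interval 0.24 to 0.83, limma adjusted p = 0.00781), short of the minimum difference. Nt5e differed by -0.58 (-1.06 to -0.10, limma adjusted p = 0.0482) and Tm4sf1 by -0.53 (-0.98 to -0.07, limma adjusted p = 0.0579). Other probe sets of these genes did not show such differences in the fit of all probe sets. They gave 0.06 and -0.17 for Nt5e, -0.14 and -0.01 for Tm4sf1 and -0.13 for Axl, with intervals that include 0. The intervals of Fap (0.38, from -0.10 to 0.86) and Cd248 (0.29, from -0.20 to 0.79) include 0. These sizes depend on the pseudocount, since the values lie near that of no signal: with a pseudocount of 1 the differences were 1.49 for Fap, 0.92 for Cd248 and -1.42 for Nt5e, without a call.

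The markers fell into profiles of different height. Over the 8 arrays, with each gene centred on its own mean, Fap and Cd248 were most alike, with a root mean square difference of 0.40 log2 units, followed by Thy1 and Tm4sf1 at 0.57. Tm4sf1 and Nt5e were farthest apart at 2.42. Among all other genes, those closest in profile were Cavin2 (0.27) and S1pr3 (0.32) for Thy1, Xxylt1 and Pxk (0.14 each) for Nt5e, and Rspo3 (0.19) and Arsj (0.23) for Fap. For Axl they were Gng11 (0.24) and Lrrc17 (0.26), for Tm4sf1 Cdh11 (0.26) and Postn (0.29), and for Cd248 Ghr (0.16) and Csf1 (0.20). With 3 groups, 8 arrays describe likeness over little more than 3 levels.

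Binding partners of the markers were next compared, from lists chosen by function. Thy1 binds integrins and the syndecan Sdc4, and of 9 such genes 6 were higher in MEF than in ES cells and 7 higher in MEF than in NPC, none lower (median differences 2.36 and 2.00). Over all genes 12.2% and 10.5% were called higher in these comparisons. Itga5, the fibronectin receptor chain, was at 9.98 ± 0.05 in MEF, 6.34 ± 0.37 in NPC and 6.73 ± 0.11 in ES cells (SD, n = 2, 3 and 3). Itgb5 led against NPC with a difference of 4.11, and Itgb1 (2.95) and Itgav (2.63) followed Itga5 (3.25) against ES cells. In NPC against ES cells, Itgb5 was lower (-1.56) and Itgav higher at 1.08, a call that was not made with median centring (0.99), at the deposited scaling (0.97) or without NPC 1 (0.98).

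Endosialin binds matrix proteins, and of 9 family members and ligands of Cd248, 7 were higher in MEF than in ES cells and 5 higher in MEF than in NPC, none lower (6 against NPC without NPC 1). Over all genes 12.2% and 10.5% were called higher in these comparisons. Col1a1, also on the list of fibroblast identity genes, led against both ES cells (6.845) and NPC (8.841). Among its ligands, Lgals3bp was at 8.27 ± 0.26 in MEF, 4.44 ± 0.12 in NPC and 5.15 ± 0.17 in ES cells, and Col4a1, of basement membrane collagen, was 2.83 above ES cells. Thrombomodulin (Thbd), a relative of Cd248, was 2.02 higher in MEF than in ES cells and 1.71 lower in NPC than in ES cells (log2 difference -1.71). The relative Cd93 was 2.24 higher in MEF and 2.28 higher in NPC than in ES cells, with NPC arrays spread by an SD of 1.79.

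Axl differed from the other TAM receptors. Tyro3 was called lower in MEF, at 6.28 ± 0.01 against 7.75 ± 0.11 in NPC and 7.90 ± 0.09 in ES cells (log2 differences -1.47 and -1.62), and the call against NPC was not made at the deposited scaling (-0.78). Mertk was at 6.54 in MEF, 6.90 ± 0.30 in NPC and 5.77 ± 0.36 in ES cells and was called higher in NPC than in ES cells (1.13). The ligand Gas6 was called higher than in ES cells in both MEF (1.85) and NPC (2.25), while Pros1, the other ligand, was not called in any comparison as normalized here, at 7.77 ± 0.11 in MEF, 7.56 ± 0.23 in NPC and 6.91 ± 0.05 in ES cells. At the deposited scaling and under median centring, 3 of these 4 genes were called higher in MEF than in ES cells in place of 1, and their median difference from NPC was 0.41 and 0.07 in place of -0.39.

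Relatives of Fap and Tm4sf1 moved less. Of 9 dipeptidyl and prolyl peptidases, 3 were higher in MEF than in ES cells, Prep (1.38), Prcp (1.31) and Dpp8 (1.27), and none was called in MEF against NPC (limma, 5 higher at the deposited scaling and 3 with median centring). Without NPC 1, 1 was also lower in MEF than in ES cells. Dpp4, the closest relative of Fap (named after its values were seen), was at 4.86 ± 0.56 in MEF, 4.77 ± 0.24 in NPC and 4.90 ± 0.28 in ES cells. In the L6 family, Tm4sf5 was lower in MEF (-1.60) and in NPC (-1.76) than in ES cells, and Tm4sf4 and Tm4sf20 were not called.

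Genes acting around Nt5e were called in MEF, in either direction, at shares near those of all genes (25% against ES cells and 18.5% against NPC). Of 12 measured genes of the extracellular adenosine pathway, 1 was higher and 3 were lower in MEF than in ES cells. Over all genes 12.2% were higher and 12.8% lower there. In MEF against NPC 2 of the 12 were higher, where 10.5% of all genes were. In NPC against ES cells 4 were lower and 0 higher, where 12.9% of all genes were lower and 10% higher. Adenosine deaminase (Ada), which removes adenosine, was at 7.70 ± 0.19 in MEF, 5.62 ± 0.06 in NPC and 6.45 ± 0.16 in ES cells, higher in MEF against both. Alpl, alkaline phosphatase, and Enpp3, an ectonucleotide hydrolase, were lower than in ES cells in both MEF (-3.77 and -3.30) and NPC (-3.79 and -3.84), and so was the nucleoside transporter Slc29a1 (-2.33 and -1.84). Entpd2, which degrades extracellular ATP, was higher in MEF than in NPC (1.11).

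**Figure D3:**
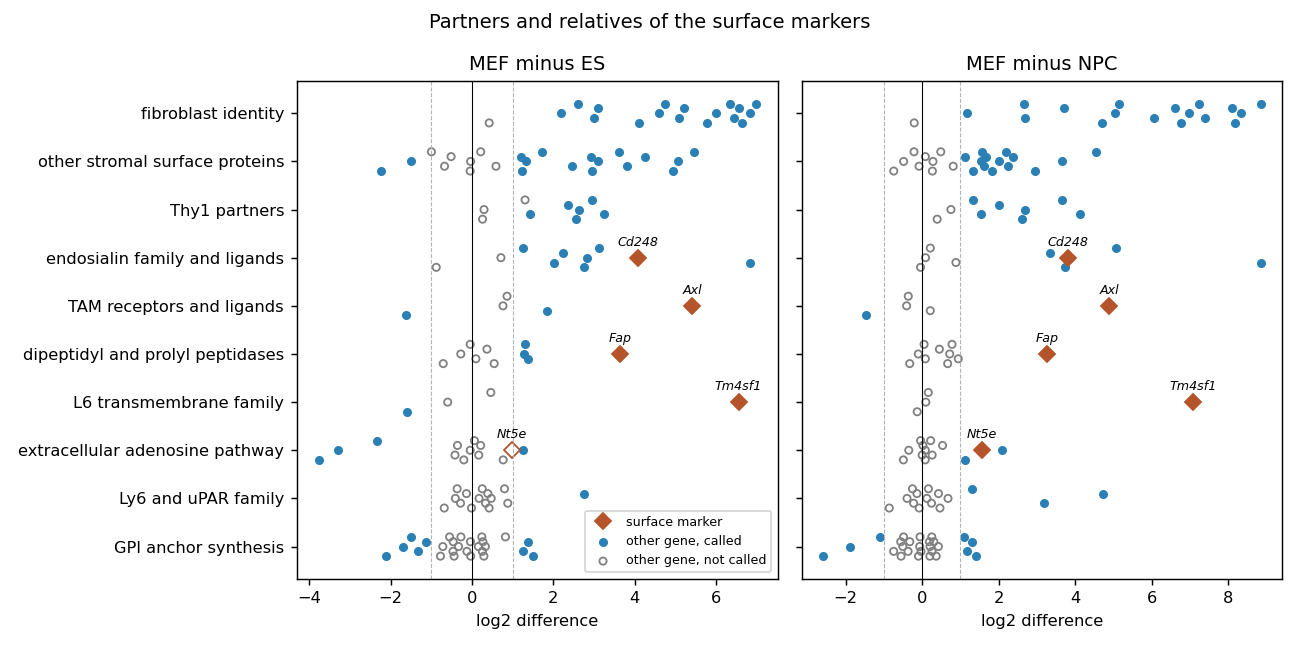
Log2 differences (x axis) of the genes of 10 lists for MEF minus ES (left) and MEF minus NPC (right). Diamonds are the surface markers, filled where called, blue points other called genes, open circles genes not called, and dashed lines mark differences of 1. Tm4sf1, Axl and Fap lie to the right of all other genes of their own families in both panels.

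In the Ly6 and uPAR family, to which the unmeasured Ly6a belongs, 1 of 15 other genes was higher in MEF than in ES cells, Plaur, the urokinase receptor (2.74), with 3 higher under median centring and 5 at the deposited scaling. Against NPC, Plaur (4.71), Ly6e (3.18) and Cd59a (1.30) were higher. Ly6e fell in NPC relative to ES cells by a log2 difference of 2.71. Genes that make and attach the GPI anchor were called at shares not far from those of all genes: of 26, 3 were higher and 5 lower in MEF than in ES cells, 4 higher and 3 lower in MEF than in NPC, and 2 higher and 5 lower in NPC than in ES cells (3 lower without NPC 1). The shares of all genes in these comparisons were 12.2% higher and 12.8% lower, 10.5% and 7.95%, and 10% and 12.9%, in that order. At the deposited scaling 8 of the 26 were higher and 1 lower in MEF than in ES cells, and 6 higher and 1 lower in MEF than in NPC. Pgap1, which remodels the anchor lipid, was lowest in MEF, at 6.18 ± 0.03, against 8.76 ± 0.25 in NPC and 8.30 ± 0.04 in ES cells. The median of this list in MEF against ES cells changed sign with the scaling (-0.20 as reported, 0.35 at the deposited scaling and 0.02 under median centring).

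Other surface proteins used on fibroblasts and stromal cells were more often called higher than lower in MEF. Of 23, 14 were higher and 2 lower in MEF than in ES cells (4 lower without NPC 1), and 14 were higher and none lower in MEF than in NPC (1 lower without NPC 1). Among all genes 12.2% were higher and 12.8% lower in MEF than in ES cells, and 10.5% higher and 7.95% lower in MEF than in NPC. The hyaluronan receptor Cd44 (5.45), Vcam1 (5.08) and Antxr1 (4.95) led against ES cells, and Vcam1 (4.54), Alcam (3.65) and Mcam (2.94) against NPC. Cd44 and Antxr1 were also higher in NPC than in ES cells (3.21 and 3.35). The peptidase Mme was lower in MEF (-2.23) and in NPC (-3.79) than in ES cells, and Cd9 lower in MEF by -1.49, a call not made with median centring (-0.999) or at the deposited scaling (-0.68).

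Cells other than fibroblasts also carry these proteins, and some of their markers moved with MEF. The shares of all genes called in MEF were 12.2% higher and 12.8% lower against ES cells, and 10.5% higher and 7.95% lower against NPC. Of 9 macrophage and blood markers, 6 were higher and 2 lower in MEF than in ES cells and 8 higher in MEF than in NPC, and their summed normalized intensity was 1260 to 1270 in MEF, 114 to 141 in NPC and 643 to 699 in ES cells. Against ES cells 7 were higher and 1 lower under median centring, where the lower call of Cd68 was not made (-0.92), and 7 higher and 0 lower at the deposited scaling, where those of Cd68 (-0.60) and Laptm5 (-0.84) were not made. Ptprc, which defines blood cells, was at 6.21 ± 0.22 in MEF, 4.32 ± 0.20 in NPC and 4.12 ± 0.14 in ES cells. Of 8 pericyte markers, 4 were higher and 1 lower in MEF than in ES cells and 5 higher in MEF than in NPC, with sums of 2340 to 2370 in MEF, 193 to 250 in NPC and 620 to 642 in ES cells. Cspg4 was at 7.54 ± 0.12 in MEF, while Kcnj8 and Abcc9 were at 4.83 ± 0.16 and 5.06 and were not called. Pdgfrb, at 10.64 ± 0.01 in MEF, and Mcam, at 8.36 ± 0.01, were the highest of these 8 in MEF and also stand on the lists of fibroblast identity genes (Pdgfrb) and stromal surface proteins (Mcam). The part of these cells in the values of Axl, Cd248 and the other markers was not tested.

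Markers of endothelial and T cells were seldom called higher in MEF. For comparison, 12.2% of all genes were higher and 12.8% lower in MEF than in ES cells, and 10.5% higher and 7.95% lower in MEF than in NPC. Of 8 endothelial markers none was called higher in MEF (limma) and 3 were lower than in ES cells, and Cdh5 and Tie1 were at 4.64 ± 0.04 and 4.21 ± 0.24 in MEF. A single one was higher in MEF than in NPC without NPC 1, under median centring and at the deposited scaling, and at the deposited scaling 1 was higher and 2 were lower in MEF than in ES cells. None of 7 T cell markers was called in any comparison (limma), and their values ran from 4.06 to 5.81. A single one was higher in MEF than in NPC without NPC 1 and at the deposited scaling, and 1 was lower in MEF than in ES cells under median centring. Of 10 neuron markers, 2 were higher and 2 lower in MEF than in ES cells, and 1 higher and 5 lower in MEF than in NPC. Of 8 epithelial and mesothelial markers, 1 was higher and 4 lower in MEF than in ES cells, with 3 higher and none lower in MEF than in NPC. For the ES cells, once grown on MEF feeders, whether leftover feeder RNA contributed to the values of Thy1 and Axl was not tested.

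**Figure D4:**
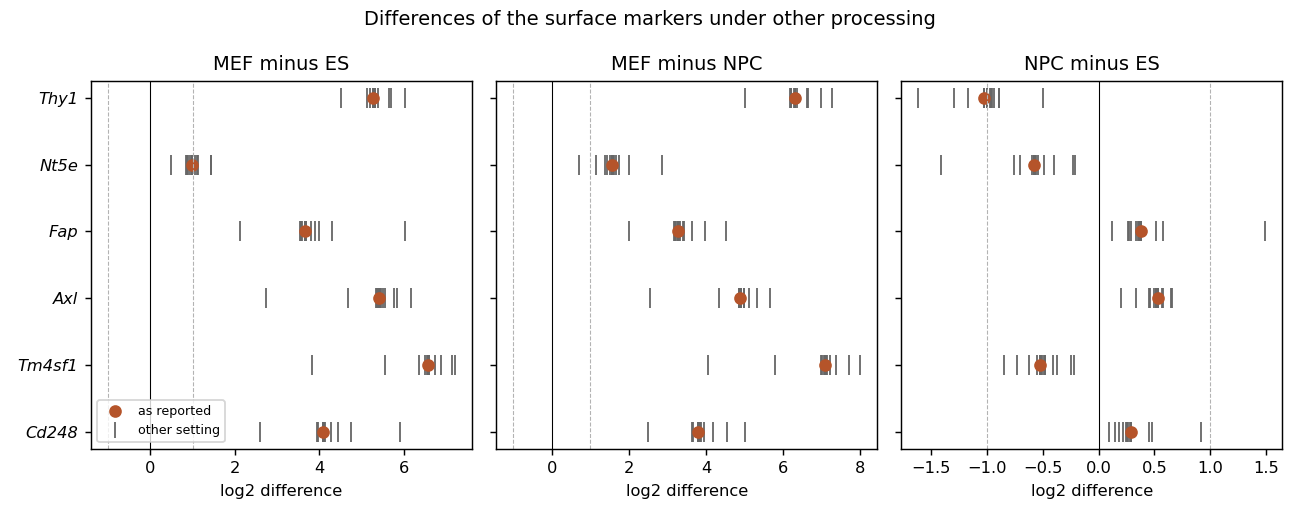
Log2 difference (x axis) of each marker gene as reported (filled point) and under each of 18 other settings (ticks), for MEF minus ES, MEF minus NPC and NPC minus ES, with dashed lines at differences of 1. No tick lies on the other side of 0 from its point. Ticks of settings that cannot change a difference lie on the point.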

How the data were processed

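For 8 arrays the authors deposited a linear intensity for each probe set. The submitters' processing notes list GCOS 1.4, with settings not given in the sources used here. Array medians differed 1.65-fold, at 30.2 and 31.5 on the MEF arrays and 19.1 to 23.8 on the NPC and ES arrays. Scaling and cell type therefore cannot be told apart. The deposited scaling was not taken as common, and quantile normalization gave all arrays the same distribution. After 64 control probe sets were left out, 34945 of 45037 probe sets were listed with 1 gene, 932 with several and 9160 with none. Values were transformed to log2(intensity + 16), quantile normalized and reduced to the brightest probe set of each of 18193 genes. Groups were compared in 1 linear model with a variance trend (R 4.3.3, limma 3.58.1), with no detection calls. A fit of all probe sets gave the values of single probe sets. The procedure was tested on simulated data. Precision is limited by the number of arrays.

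The members, lists and tests were chosen with earlier results of these data known. Named beyond the 7 markers were up to 3 called genes a direction, list and comparison whose arrays did not overlap, every gene of lists of 5 or fewer, label markers, and the 2 genes nearest in profile to each marker. Alternatives were other scalings, pseudocounts of 1 and 64, a filter on dim genes, other probe set choices, no trend, fits of only the 2 groups compared, a replicate block and leaving out each array. List counts under other scalings and without NPC 1 were added after seeing the data. Promoter sequences are from RefSeq (GRCm38.p6).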

Additional observations from a re-analysis of the deposited data

How the results depend on the processing

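All 18 alternatives kept the direction of the 6 markers in each of the 3 comparisons, but not all of them could change it. The filter on dim genes, no trend and fits of only the 2 groups compared leave a difference as it was. So did leaving out probe sets of shared sequence, and in these settings only the adjusted p could move. In MEF against ES cells 104 of 108 values kept their call or lack of one and 4, all of Nt5e, became calls. In MEF against NPC 107 did and 1, of Nt5e, lost its call. In NPC against ES cells 99 did and 9, all of Thy1, lost the call, so that 0 in place of 1 marker was called with median centring, at the deposited scaling and with a pseudocount of 64, and 0 to 1 when an array was left out. With a pseudocount of 64 the genes called fell to 2948 of 18193 in MEF against ES (4554 as reported), 2110 in MEF against NPC (3359) and 2638 in NPC against ES (4173), since it shrinks differences of dim genes. The deposited scaling gave 5101 in MEF against NPC. Deviations from the group means correlated at -0.02 to 0.023 over 7 pairs of arrays with the same replicate number. Over 14 pairs with different numbers they correlated at -0.027 to 0.04. The deviations of the 2 MEF arrays mirror each other, and most genes vary little within a group. Whether the numbers pair the samples therefore cannot be told from these correlations. With the replicate block, 5, 6 and 1 markers were called and 4564, 3357 and 4186 genes. Differences of dim markers, Fap, Cd248 and Nt5e, are limited by signal near the value of no signal.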
